A study of Mus musculus with 2 samples.

Results

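The genes described here are 39 genes of DNA replication and the cell cycle, chosen by name, of the 27962 gene names on a whole-genome mouse array: the Mcm2 to Mcm7 helicase and its regulators, the enzymes of deoxynucleotide supply, the cyclins, and the kinases, ubiquitin ligase factors, centromere proteins and spindle proteins of mitosis. Liver RNA was measured on 6 arrays of 1 colour. All the mice were apoE-KO, male and of strain C57BL/6, and received their diet for 1 week from 10 weeks of age. The normal chow group (3 arrays) ate plain chow, and the high-Chol diet group (3 arrays) ate that chow with 1.25% cholesterol added. Every mouse lacked apolipoprotein E, the ligand that clears remnant lipoproteins, so the comparison was between diets within 1 genotype. The comparison asked which liver transcripts differed after the week of cholesterol feeding.

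A cell that divides first loads the Mcm2 to Mcm7 helicase onto replication origins in G1, copies its DNA in S phase with deoxynucleotides made by ribonucleotide reductase, thymidylate synthase and thymidine kinase, and then builds a spindle and separates its chromosomes under the kinases Aurora A, Aurora B and Plk1 and the anaphase-promoting complex. Most hepatocytes of an adult liver rest outside the cycle, while other cells of the tissue, macrophages among them, can divide or arrive from the blood. In RNA of the whole liver, more cells of a dividing type and more RNA per cell cannot be told apart.

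Many genes of the cycle share short promoter elements. The CHR element (TTTGAA or TTTAAA) and the CCAAT box are known from promoters that are active in G2 and mitosis, and E2F sites from promoters that are active on entry into S phase. RefSeq promoters (assembly GRCm38.p6, 250 bases before to 50 after the start of transcription) were found for 30 of the 39 genes; Mcm4, Gmnn, Ccnd1, Ccne2, Ccna2, Foxm1, Aurkb, Tpx2 and Kif20a had no entry. Of the 30 promoters, 6 are shown because their genes carry the differences described later: 3 genes of mitosis, a helicase subunit, and both genes whose high-Chol arrays all lay below the normal chow arrays. The windows are those of Mki67 (chr7:135716330-135716629, minus strand), Prc1 (chr7:80294201-80294500, plus strand), Ccnb2 (chr9:70421505-70421804, minus strand), Mcm3 (chr1:20820263-20820562, minus strand), Rrm2 (chr12:24708004-24708303, plus strand) and Ccne1 (chr7:38107441-38107740, minus strand). Capitals mark CHR elements, CCAAT boxes and the E2F cores TTTCGCGC, TTTGGCGC, TTTCCCGC and TTTGCCGC, each on either strand, and sequences run 5′ to 3′ along the gene. No capital of a motif overlaps another motif in these windows.
Mki67: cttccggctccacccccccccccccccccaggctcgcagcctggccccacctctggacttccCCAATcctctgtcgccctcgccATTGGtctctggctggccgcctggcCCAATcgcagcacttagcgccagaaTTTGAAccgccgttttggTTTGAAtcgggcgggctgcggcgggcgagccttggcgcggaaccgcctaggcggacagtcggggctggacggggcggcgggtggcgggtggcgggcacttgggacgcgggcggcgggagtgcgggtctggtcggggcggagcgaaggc
Prc1: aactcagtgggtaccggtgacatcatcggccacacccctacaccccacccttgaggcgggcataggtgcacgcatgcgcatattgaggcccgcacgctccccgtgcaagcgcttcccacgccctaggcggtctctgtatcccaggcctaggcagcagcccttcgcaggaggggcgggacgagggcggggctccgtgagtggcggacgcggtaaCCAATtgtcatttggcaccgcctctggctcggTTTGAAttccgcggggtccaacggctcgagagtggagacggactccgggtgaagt
Ccnb2: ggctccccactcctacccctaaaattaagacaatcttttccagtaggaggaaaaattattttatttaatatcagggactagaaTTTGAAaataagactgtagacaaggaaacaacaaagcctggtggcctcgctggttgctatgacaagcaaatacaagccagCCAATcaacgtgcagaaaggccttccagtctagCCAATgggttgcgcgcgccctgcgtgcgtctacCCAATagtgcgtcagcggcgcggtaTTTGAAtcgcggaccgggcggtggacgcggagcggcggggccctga
Mcm3: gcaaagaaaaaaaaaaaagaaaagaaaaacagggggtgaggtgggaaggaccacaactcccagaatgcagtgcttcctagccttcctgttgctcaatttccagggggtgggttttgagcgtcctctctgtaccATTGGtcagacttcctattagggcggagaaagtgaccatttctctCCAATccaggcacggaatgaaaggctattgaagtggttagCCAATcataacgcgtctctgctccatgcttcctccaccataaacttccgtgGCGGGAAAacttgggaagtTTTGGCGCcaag
Rrm2: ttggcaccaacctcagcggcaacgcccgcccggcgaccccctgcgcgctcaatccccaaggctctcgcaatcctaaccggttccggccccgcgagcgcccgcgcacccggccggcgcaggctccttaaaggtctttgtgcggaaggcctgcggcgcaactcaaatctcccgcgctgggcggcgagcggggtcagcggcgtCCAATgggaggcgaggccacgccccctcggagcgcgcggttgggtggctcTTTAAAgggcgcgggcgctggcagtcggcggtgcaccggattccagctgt
Ccne1: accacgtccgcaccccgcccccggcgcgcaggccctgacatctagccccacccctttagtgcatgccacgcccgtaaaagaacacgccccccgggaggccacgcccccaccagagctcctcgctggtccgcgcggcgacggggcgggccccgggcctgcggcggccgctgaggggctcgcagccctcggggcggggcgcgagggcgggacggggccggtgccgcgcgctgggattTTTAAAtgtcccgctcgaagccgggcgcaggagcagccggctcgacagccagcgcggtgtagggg

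The promoters of Mki67, Prc1 and Ccnb2 held the TTTGAA form of the CHR element together with CCAAT boxes, and none of the E2F cores. The Mcm3 window held E2F cores beside CCAAT boxes and no CHR element. Rrm2 and Ccne1 held the TTTAAA form of the CHR element, Rrm2 with a CCAAT box and Ccne1 without. Over the 18 genes of S phase, G2 and mitosis with a promoter, 16 had a CHR element, 15 a CCAAT box and 0 an E2F core. The 12 genes of G1, S-phase entry and replication with a promoter had a CHR element in 5, a CCAAT box in 8 and an E2F core in 5. Over all 27018 genes with a promoter in that table the shares were 30.6% for the CHR element, 41.1% for the CCAAT box and 2.61% for the E2F cores. The TTTGAA form alone was in 14 of the 18 genes and in 1 of the 12, against 20.2% of all genes, and the wider pattern TTTNNCGC was in 0 and 6 of them, against 5.93% of all genes. These matches describe letters in a window and not sites that a protein occupies.

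The arrays differed in ways the diet did not set. The 3 normal chow arrays and high-Chol array 1 were on 1 slide and were read with software version 9.5.1.1; high-Chol arrays 2 and 3 were on a second slide, read with version 9.1.1.1. The 75th percentile of signal was between 271.1 and 373.5 units on slide 1 and was 762.0 and 799.2 on slide 2. Normal chow array 1 had 50.5% of its spots well above background, and the other arrays between 60.2% and 67.2%. The diets can therefore be compared free of the slide only on slide 1, with 1 high-Chol array against 3 normal chow arrays. Values are log2 signals relative to the 75th percentile of their array, and differences are high-Chol diet minus normal chow on that log2 scale. Defining genes of hepatocytes (Alb, Ttr, Apoa1 and 6 more) passed the background flag on each array.

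The 39 genes were measured by 60 probes. A gene was tested when every array of a diet read a probe of it as well above background, and 29 genes passed; 27 of these passed that mark on each of the 6 arrays. Tpx2 and Nusap1 passed through the high-Chol arrays alone, so counts over the 29 genes are not counts over all 39. The 10 genes that did not pass were Cdc6, Ccne2, Ccnb1, Foxm1, Bub1, Bub1b, Aurkb, Kif11, Kif2c and Top2a.

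**Figure D1:**
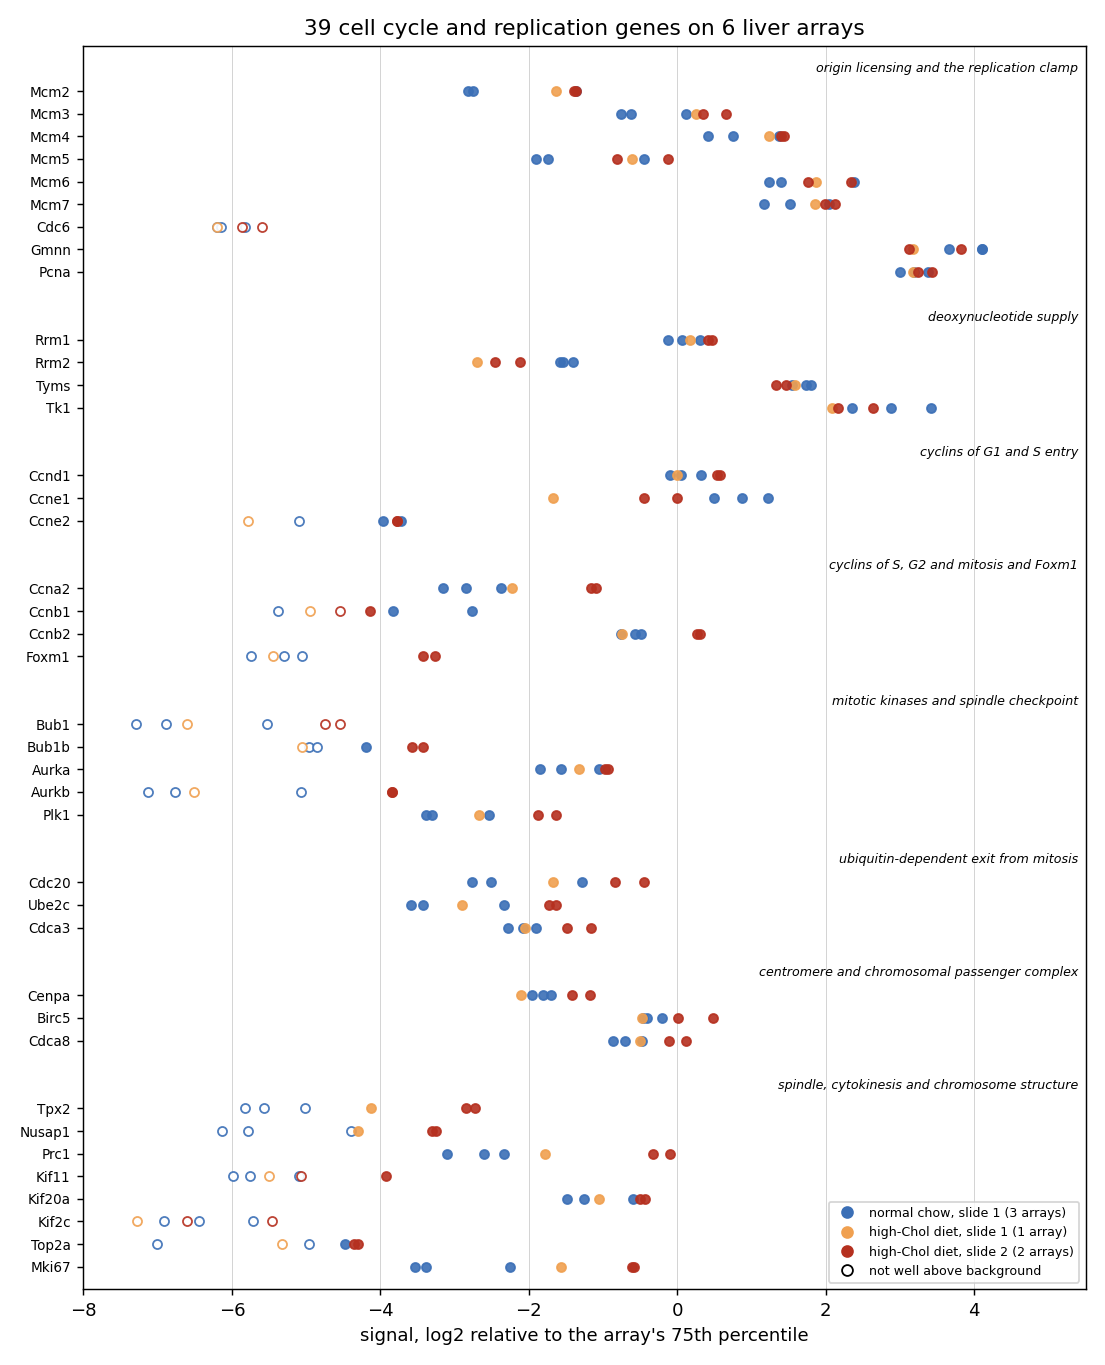
Signal of the 39 genes (rows, grouped by role) on the 6 arrays, on a log2 scale whose 0 is the array's 75th percentile; each point is 1 array, coloured by diet and slide, and open points were not well above background. In most of the lower rows both high-Chol arrays of slide 2 lie to the right of the other 4 arrays, while Rrm2 and Ccne1 have all 3 high-Chol arrays on the left.

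Of the 29 genes, 2 (Mki67 and Tpx2) were called higher on the high-Chol diet and 0 lower (limma, adjusted p under 0.05). Tpx2 had passed the background filter through the high-Chol arrays alone, and over genes above background on all 6 arrays the calls were Mki67 higher and Rrm2 lower, 1 each way, beside 335 higher and 55 lower of all genes so filtered. Over all 16730 genes tested (above background on every array of at least 1 diet), 2.69% were called higher and 0.227% lower. Without adjustment of p, 9 of the 29 genes passed 0.05 as higher and 3 as lower, against 2064 and 1477 of all genes. The difference was positive for 24 of the 29 genes and negative for 5, with a median of 0.52, where the median over all genes tested was -0.02; over the 27 genes above background on all 6 arrays it was 0.45. Under background correction by normexp the split was 16 to 13 and the median 0.00, beside -0.11 for all genes. Normexp used the same offset of 50 on each array. The 75th percentile of signal was at most 325.4 on normal chow arrays and at least 373.5 on high-Chol arrays. Relative to that percentile the offset weighed more on normal chow, which lowers the difference of a dim gene. The sign of a dim gene under normexp therefore does not settle its direction, and the size of this shift was not tested. With each array scaled to its median, the 29 genes had a median of 0.28 and all genes of -0.26, so the gap between them stayed at 0.54. With the slide as a block the split was 19 to 10, the median 0.18 (all genes -0.06), and limma called no member and 0.0658% of all genes higher, with 3 members higher and 2 members lower before p was adjusted.

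The calls depended on each array. Leaving out normal chow array 1, 2 or 3 gave 3, 0 and 0 members called higher, beside 239, 42 and 168 of all genes, and leaving out high-Chol array 1, 2 or 3 gave 9, 0 and 0, beside 2316, 103 and 151. Without high-Chol array 1, the array on the slide of the normal chow arrays, Rrm2 and Ccne1 were also called lower, as were 761 genes in all.

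**Figure D2:**
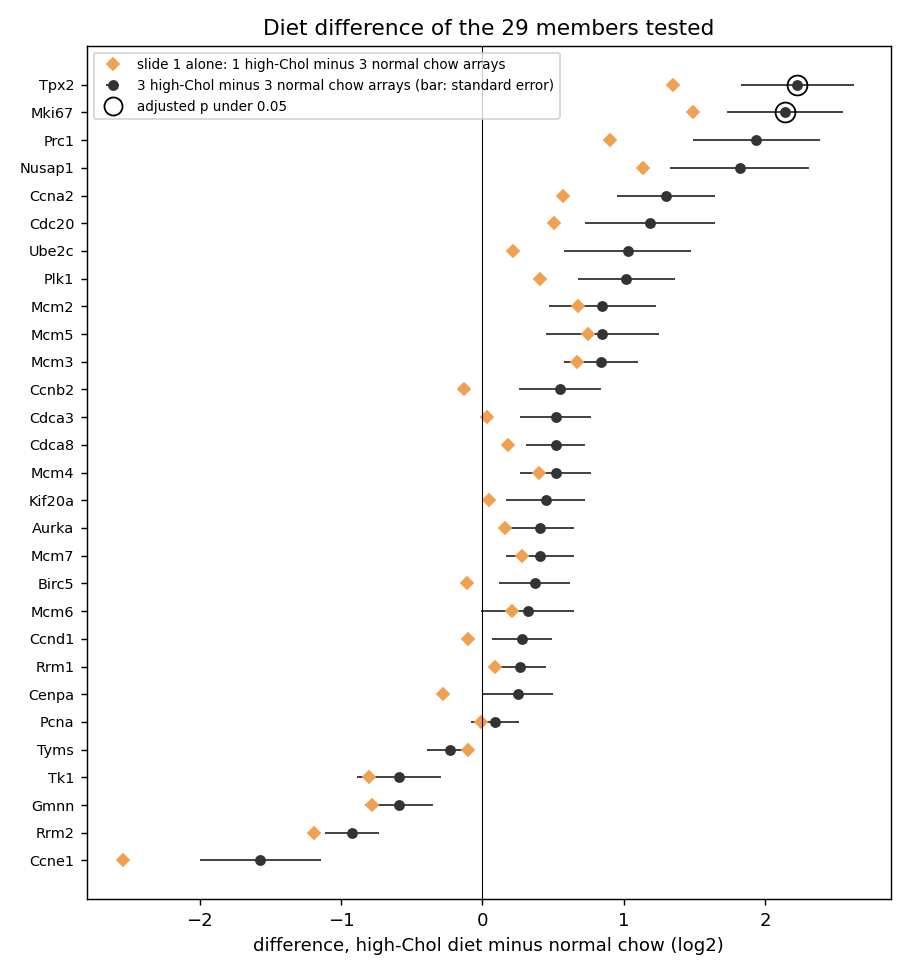
Difference between the diets for the 29 genes tested (log2), from all 6 arrays (black, bar: standard error of the limma fit) and from slide 1 alone (orange: high-Chol array 1 minus the mean of 3 normal chow arrays); rings mark an adjusted p under 0.05. Among genes above background on all 6 arrays, Mki67 (2.14) is the highest and Ccne1 (-1.57) the lowest; the points of Tpx2 (2.23) and Nusap1 (1.82) are fitted values against normal chow arrays below background and have no exact place in the order, and for most genes the orange point is nearer 0.

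The genes of the spindle, cytokinesis and chromosome structure were tested for 5 of 8 (Mki67, Prc1, Kif20a, Tpx2 and Nusap1), and Tpx2 and Nusap1 passed the filter through the high-Chol arrays alone. The median difference was 1.94 over the 5 and 1.32 over all 8 without the filter. Mki67, the coat protein of mitotic chromosomes that serves as a marker of dividing cells, is on chromosome 7, and its brighter probe is at bases 132094802 to 132094861 on the minus strand in the mm7 assembly named by the array files. It stood at -2.26, -3.54 and -3.38 on the normal chow arrays and at -1.57, -0.61 and -0.58 on the high-Chol arrays. The diets did not overlap, with array 1 of each diet nearest to the other diet. The mean rose from -3.06 ± 0.70 to -0.92 ± 0.56 (SD, n = 3 each), a 4.41-fold change with a log2 difference of 2.14 ± 0.41 (SE) and a limma adjusted p of 0.0451. Under normexp the difference was 0.42 (adjusted p 1.0). On slide 1 alone it was 1.49, and its adjusted p with the slide as a block was 0.452. The call was also lost under quantile normalization (adjusted p 0.0514), without a filter (0.166), with the slide as a random block (0.102) and with the methods' t-test (0.217). Leaving out normal chow array 2 or 3 or high-Chol array 2 or 3 ended the call, with adjusted p between 0.128 and 0.186. A second Mki67 probe, well above background on the 3 high-Chol arrays and on 0 normal chow arrays, was brighter with cholesterol by at least 2.29-fold (adjusted p 0.0508 with every probe tested). Both probes lay on the same side, and the dimmer one did not pass.

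Tpx2, which activates Aurora A on spindle microtubules, was not well above background on any normal chow array. Its probe is on chromosome 2 at bases 152634597 to 152634656, plus strand, in mm7. It read -5.02, -5.57 and -5.82 under normal chow and -4.13, -2.85 and -2.73 under the high-Chol diet, where each array read well above background. The rise was at least 2.49-fold, taking the lowest signal well above background on each normal chow array as its level (fitted difference 2.23 ± 0.40, limma adjusted p 0.0371). Under normexp the sign turned to -0.32 with an adjusted p of 1.0, and on slide 1 alone the difference was 1.35. For a probe this dim, the fixed normexp offset weighed more on the normal chow arrays, so the turned sign does not settle the direction. Leaving out any array other than high-Chol array 1 ended the call, with adjusted p between 0.0651 and 0.163.

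Prc1, which bundles the microtubules of the central spindle, read -2.33, -3.10 and -2.60 in the normal chow group and -1.78, -0.33 and -0.10 in the high-Chol group. All 3 high-Chol arrays were above all normal chow arrays, and array 1 was well below the other two. The difference of 1.94 ± 0.45 did not pass (limma adjusted p 0.0799), and it was 0.90 on slide 1 alone and 0.48 under normexp; with each array scaled to its median it was 1.71 and was called (adjusted p 0.0362). Between the slides, the high-Chol arrays differed by 1.57 (slide block, adjusted p 0.0714). Nusap1, another microtubule-binding protein of the spindle, was above background on the high-Chol arrays alone and at least 1.91-fold higher there (fitted difference 1.82, limma adjusted p 0.118; -0.45 under normexp). Its second probe was above background on no array. Kif20a, a kinesin of cytokinesis, had a difference of 0.45 on its brighter probe and 0.85 on the other, with adjusted p 0.394 and 0.186 when every probe was tested.

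Of the genes of this group that were not tested, Top2a, the topoisomerase that untangles sister chromosomes, was at -4.96, -7.01 and -4.48 (normal chow) against -5.32, -4.30 and -4.36 (high-Chol diet), well above background on 1 and 2 of 3 arrays. Its diets overlapped, and its other 2 probes were above background on no array. Kif11, the motor that pushes spindle poles apart, was above background on 1 high-Chol array, and Kif2c, which takes down microtubules at the kinetochore, on none.

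Among the cyclins of S phase, G2 and mitosis, Ccna2 and Ccnb2 were tested and neither passed. Ccna2, the cyclin A of S phase and G2, read -2.37, -2.85 and -3.16 under normal chow and -2.22, -1.10 and -1.16 under the high-Chol diet. The diets did not overlap, but high-Chol array 1 was close to normal chow array 1. Its difference was 1.30 ± 0.35 (limma adjusted p 0.118; -0.01 under normexp). Ccnb2, a cyclin B, read -0.49, -0.57 and -0.76 in the normal chow group and -0.74, 0.31 and 0.26 in the high-Chol group. Here high-Chol array 1 sat among the normal chow arrays, and the difference of 0.55 (adjusted p 0.314) became -0.13 on slide 1. Foxm1, the transcription factor of G2 genes, was above background on 0 of 3 normal chow arrays and on high-Chol arrays 2 and 3, with -3.43 and -3.27 there and -5.45 on high-Chol array 1, within the normal chow range. The 3 Ccnb1 probes were above background on at most 2 arrays of a diet, and their differences had opposite signs (-0.56, -1.14 and 1.81).

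Of the mitotic kinases and checkpoint genes, Plk1 and Aurka were tested and neither passed. Plk1 read -2.53, -3.39 and -3.31 (normal chow) against -2.67, -1.88 and -1.63 (high-Chol diet), so that high-Chol array 1 overlapped normal chow. Its difference was 1.02 ± 0.34 (limma adjusted p 0.171), and Aurka, the spindle pole kinase, was at 0.41 (adjusted p 0.348); under normexp these were -0.16 and -0.09. Aurkb, the kinase of the chromosomal passenger complex, read -3.84 on both high-Chol arrays of slide 2, the only arrays where it was above background. High-Chol array 1 was at -6.51, within the normal chow range of -7.13 to -5.07. Bub1b, a kinase-like protein of the spindle checkpoint, was above background on those same 2 high-Chol arrays and on normal chow array 3, and Bub1 on none.

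Cdc20, the activator of the anaphase-promoting complex, read -1.28, -2.51 and -2.76 under normal chow and -1.68, -0.84 and -0.45 under the high-Chol diet. Normal chow array 1 stood above high-Chol array 1, and the difference of 1.19 ± 0.46 did not pass (limma adjusted p 0.207). Ube2c, the ubiquitin-conjugating enzyme of that complex, was at 1.03 ± 0.45 (adjusted p 0.243), and Cdca3 at 0.52 ± 0.25 (adjusted p 0.276). The 3 centromere and passenger genes did not pass either, with Cdca8 (borealin) at 0.52, Birc5 (survivin) at 0.37 and Cenpa, the histone variant of the centromere, at 0.25, and adjusted p between 0.221 and 0.567. Cdca8 read -0.48, -0.70 and -0.86 in the normal chow group and -0.50, -0.11 and 0.12 in the high-Chol group, so that high-Chol array 1 lay among the normal chow arrays. On slide 1 the differences were 0.51 for Cdc20, 0.22 for Ube2c, 0.03 for Cdca3 and 0.18 for Cdca8, and the sign turned for Birc5 (-0.11) and Cenpa (-0.28). Under normexp Cdc20 was at 0.22, and the sign turned for Ube2c (-0.14), Cdca3 (-0.17) and Cenpa (-0.19).

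Over the 23 genes of S phase, G2 and mitosis, 15 were tested. In all 15 both slide 2 arrays were above all 4 slide 1 arrays, a pattern of 24.9% of all genes with 6 values; high-Chol array 1 was the lowest of its diet in all 15, against 44.0% of all genes. High-Chol array 1 was above every normal chow array in 5 of them (Ccna2, Tpx2, Nusap1, Prc1 and Mki67), against 21.9% of all genes (3 of 13 without Tpx2 and Nusap1, whose normal chow readings were below background), and below every normal chow array in 2, against 32.8%. The median difference of the 15, Tpx2 and Nusap1 included, was 1.02 over all arrays and 0.22 on slide 1. Tpx2 and Nusap1 lie above both medians, which are lower without these genes. With the slide as a block, the slide 2 minus slide 1 difference within the high-Chol diet was called higher for 3.12% of all genes and for 0 members, with adjusted p of 0.0598 for Ccnb2 and 0.0714 for Prc1. The diet could not be told apart from the slide on high-Chol arrays 2 and 3.

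**Figure D3:**
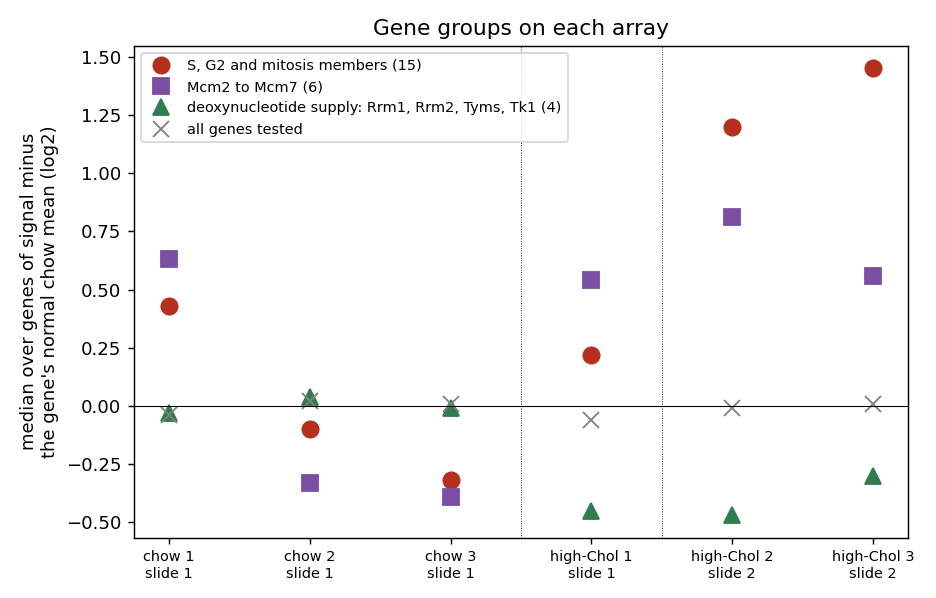
Median over the genes of a group of each gene's signal minus its normal chow mean (log2), on each of the 6 arrays; symbols mark 15 genes of S phase, G2 and mitosis, the 6 Mcm genes, the 4 genes of deoxynucleotide supply and all genes tested. The mitosis group is at 0.22 on high-Chol array 1 and at 1.20 and 1.45 on the slide 2 arrays, and the Mcm group is at 0.63 on normal chow array 1, above high-Chol array 1 at 0.54. The mitosis group includes Tpx2 and Nusap1, which passed the filter through the high-Chol arrays alone and whose normal chow readings were below background.

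Among the replication helicase genes, normal chow array 1 stood apart from the other two arrays of its diet. All 6 Mcm genes had a positive difference (0.32 to 0.85), and 0 passed; under normexp the differences were 0.00 (Mcm2) to 0.54, with Mcm5 at 0.22. Mcm3 read 0.12, -0.63 and -0.76 in the normal chow group and 0.25, 0.65 and 0.35 in the high-Chol group, which differed by 0.84 ± 0.26 (limma adjusted p 0.153), and by 1.14 on its other probe. It was the helicase gene whose diets did not overlap. Mcm5 read -0.45, -1.91 and -1.74 (normal chow) against -0.61, -0.12 and -0.81 (high-Chol diet) (difference 0.85 ± 0.40, adjusted p 0.267). Mcm2 read -1.37, -2.82 and -2.75 under normal chow and -1.64, -1.37 and -1.39 under the high-Chol diet (difference 0.85 ± 0.38, adjusted p 0.254). In both, normal chow array 1 lay among the high-Chol arrays and the other two lay below them. Without normal chow array 1, Mcm2 was called higher. Normal chow array 1 was the highest of its diet for all 6 Mcm genes and for 22 of the 29 genes tested, against 31.4% of all genes; the lower share of spots above background on that array was not tested as a source. The slide 1 differences of the Mcm genes, 0.21 to 0.75, were near those of all arrays.

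Pcna, the sliding clamp of DNA polymerase, was measured by 10 spots of a probe and read 3.00, 3.38 and 3.19 in the normal chow group and 3.18, 3.43 and 3.24 in the high-Chol group. The diets overlapped, and the difference was 0.09 ± 0.17 (limma adjusted p 0.761), or -0.14 with each array scaled to its median. Gmnn (geminin), which blocks a second loading of the helicase, was at 3.66, 4.11 and 4.11 (normal chow) against 3.18, 3.12 and 3.82 (high-Chol diet). It overlapped in high-Chol array 3, with a difference of -0.59 ± 0.24 (adjusted p 0.229). Cdc6, the helicase loader, was not well above background on its brighter probe, and on its other probe was so on 1 high-Chol array.

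Rrm2 and Ccne1 were the genes whose 3 high-Chol arrays all lay below the normal chow arrays, and 14.0% of all genes with 6 values had that order. The opposite order held for 6 of the 29 genes (Mcm3, Ccna2, Tpx2, Nusap1, Prc1 and Mki67) and for 11.9% of all genes. For Tpx2 and Nusap1 that order rests on normal chow readings below background, and it held for 4 of the 27 genes above background on all 6 arrays. With 3 arrays a diet, an exact two-sided permutation test of a gene cannot go below 0.1, the value of each of these 8 genes. Rrm2, the regulated subunit of ribonucleotide reductase, read -1.41, -1.54 and -1.58 under normal chow and -2.70, -2.45 and -2.12 under the high-Chol diet. Its probe is on chromosome 12 at bases 22550253 to 22550307, plus strand, in mm7. The difference was -0.92 ± 0.19 (limma adjusted p 0.0547), and -1.19 on slide 1 alone (adjusted p 0.129 with the slide as a block). It was called lower with each array scaled to its median (adjusted p 0.0217), under quantile normalization (0.0186) and with the filter on all 6 arrays (0.0438). It was not called with the slide as a random block (0.0663), without a filter (0.21), under normexp (-0.70, adjusted p 1.0) or with the methods' t-test (0.174).

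Ccne1, the cyclin E1 that drives entry into S phase, read 0.49, 1.22 and 0.87 in the normal chow group and -1.68, -0.45 and 0.00 in the high-Chol group. The high-Chol arrays spread over a wider range than the normal chow arrays, with high-Chol array 1 the lowest. The difference was -1.57 ± 0.43 (limma adjusted p 0.121), and on slide 1 alone it was -2.54, with an adjusted p of 0.0831 with the slide as a block. It was called lower with each array scaled to its median (-1.81, adjusted p 0.0264) and with array weights (0.0346). The array files place both Ccne1 probes at the same bases of chromosome 7 (34990690 to 34990713, mm7). Their normal chow means were far apart, at 0.86 and -3.22, and why was not tested. The dimmer probe, above background on 5 of 6 arrays, gave a smaller difference of -0.38 (limma adjusted p 0.537 with every probe tested). Ccne2, the cyclin E2, was above background on 2 arrays of each diet and was not tested.

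The other 3 genes of deoxynucleotide supply were not called, and their differences were not tested against that of Rrm2. Rrm1, the large subunit of the same enzyme, was at 0.27 ± 0.18 (limma adjusted p 0.391). Tk1, thymidine kinase, was at -0.59 ± 0.30 (adjusted p 0.292), with high-Chol array 3 inside the normal chow range. Tyms, thymidylate synthase, gave -0.23, -0.16 and -0.76 on its 3 probes, with adjusted p between 0.316 and 0.55. Ccnd1, the cyclin D1 that starts G1 progression, was read by 10 spots at 0.32, -0.10 and 0.05 (normal chow) against -0.01, 0.54 and 0.57 (high-Chol diet). Its difference was 0.28 ± 0.21 (adjusted p 0.454), and -0.10 on slide 1, where high-Chol array 1 lay among the normal chow arrays.

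**Figure D4:**
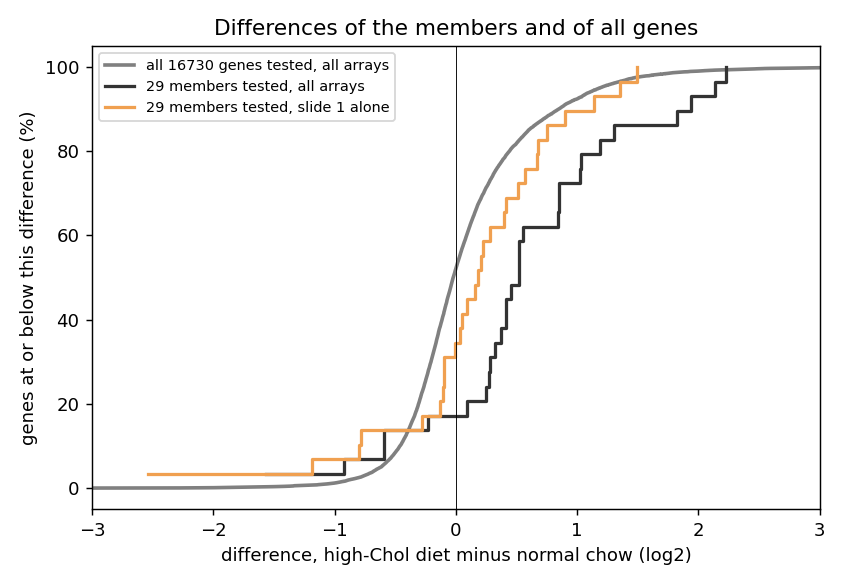
Share of genes (%) at or below a given diet difference (log2) for all 16730 genes tested (grey) and for the 29 cell cycle genes tested, from all arrays (black) and from slide 1 alone (orange). The black line is to the right of the grey line above a difference of about 0, with medians of 0.52 and -0.02, and the upper part of the orange line (median 0.18) runs between them.

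By promoter, the 13 tested genes with both a CHR element and a CCAAT box had differences from -0.92 (Rrm2) to 2.14 (Mki67), with a median of 0.85. The 10 tested genes whose promoter lacked 1 or both had a median of 0.30, with Ccne1 the lowest at -1.57 and Nusap1 counted at its fitted value. The ranges overlapped, and no test was made of the 2 groups.

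Beyond these 39 genes, a list of 129 other cell cycle genes was followed, of which 127 were on the array and 105 were tested. Of these 2 were called higher and 1 lower, beside 2.69% and 0.227% of all genes. The median difference was 0.19, and 0.08 over the 87 genes above background on all 6 arrays. The spindle, cytokinesis and condensin genes (20 tested) had a median of 0.88 and the kinetochore and checkpoint genes (12 tested) of 0.57, and the other 5 roles had medians between -0.03 and 0.15. Over genes above background on all 6 arrays the spindle and kinetochore medians were 0.61 (12 genes) and -0.05 (9 genes), so that both rested in part on genes that passed the filter through the arrays of 1 diet. On slide 1 alone they were 0.31 (20 genes) and 0.25 (12 genes), and the median of the 105 genes was 0.07. Cenpf, a kinetochore protein of G2 and mitosis, read -5.46, -6.43 and -6.42 on normal chow, where it was above background on 0 arrays, and -4.06, -3.20 and -2.96 on the high-Chol diet. It was at least 2.21-fold higher (fitted difference 2.69, limma adjusted p 0.0162). Smc2, a subunit of condensin, read -4.05, -4.20 and -4.30 under normal chow, where 2 of 3 arrays were above background, and -3.16, -2.94 and -3.43 under the high-Chol diet. It had passed the filter through the high-Chol arrays alone, and its fitted difference was 1.00 ± 0.18 (adjusted p 0.0353), or 1.02 on slide 1. Its call was lost with median scaling (adjusted p 0.115), quantile normalization (0.169), the slide as a random block (0.0686) and the trended prior (0.0956). The probe of Mcm10, which takes part in starting the fork, fell by 1.46 on the log2 scale (SE 0.18, limma adjusted p 0.012), from 5.79, 6.12 and 5.94 to 4.37, 4.32 and 4.77. Mcm10 had 1 probe, brighter than that of Pcna (mean 3.19 under normal chow), and whether it reads Mcm10 alone was not tested. For Mcm10 all 3 high-Chol arrays were well below the normal chow arrays and high-Chol array 1 stood with the rest of its diet. With the slide as a block none of the 3 was called (adjusted p 0.106 to 0.277), and none without the filter on dim probes, and under normexp Cenpf was at -0.44 and Smc2 at -0.48. The fixed normexp offset weighed more on the normal chow arrays for these dim probes too, so their signs under normexp do not settle a direction. Leaving out normal chow array 1, 2 or 3 gave 4, 0 and 0 genes of that list higher, beside 239, 42 and 168 of all genes, and leaving out high-Chol array 1, 2 or 3 gave 24, 0 and 1, beside 2316, 103 and 151 of all genes; Mcm10 stayed called without normal chow array 1 or high-Chol array 1 or 3, Cenpf without normal chow array 1 or high-Chol array 1, and Smc2 without high-Chol array 1 alone.

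The genes of the list that control the cycle were followed by name. Cdk1, the kinase of mitosis, was above background on 2 of 3 normal chow arrays and passed the filter through the high-Chol arrays alone. Its fitted difference was 1.22 ± 0.39 (limma adjusted p 0.16), and 0.33 on slide 1. E2f1 was at -0.13 ± 0.26 (adjusted p 0.792). Cdkn1a (p21), the inhibitor of cyclin-dependent kinases, read -2.15, -2.64 and -3.15 under normal chow and -0.45, -0.24 and -2.46 under the high-Chol diet. High-Chol array 3 lay within the normal chow range, and the difference of 1.60 ± 0.59 did not pass (adjusted p 0.198).

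Markers of other cell types were read on the same arrays. Macrophage markers were tested for 12 of 12 genes, and 6 were called higher; Cd68 had a difference of 1.74, Lyz2 of 1.78 and Ccr2, above background on 1 of 3 normal chow arrays, a fitted difference of 3.02. Other markers of the list went otherwise: Csf1r was at 0.28 with overlapping diets, and Cd163 at -0.91 (adjusted p 0.155) with all 3 high-Chol arrays below the normal chow arrays. The summed signal of the macrophage markers, in multiples of the 75th percentile, was 179 to 212 in the normal chow group and 432 to 575 in the high-Chol group. Lyz2 and Cd5l, the brightest of the list, made up most of that sum on each array, so it does not give the level of the whole list. On that sum high-Chol array 1 was at 432 and high-Chol arrays 2 and 3 (slide 2) at 560 and 575. The 560 leaves out Adgre1, which had no value on high-Chol array 2. Neutrophil markers were tested for 5 of 8 genes with 3 called higher (S100a8, S100a9 and Retnlg, the last above background on 0 normal chow arrays), and their sum was 1.66 to 1.84 (normal chow) against 9.70 to 16.0 (high-Chol diet). The brightest of them, S100a9, was at 0.37 to 0.51 and 2.99 to 3.74 on the log2 scale, while Elane, Camp and Ngp were above background on no array. The sum of 9 hepatocyte markers was 2780 to 3040 under normal chow and 2180 to 2410 under the high-Chol diet, with 0 called. The difference was negative for 8 of the 9, of which 3 (Alb, Cps1 and Fgb) had all high-Chol arrays below the normal chow arrays. Ttr went the other way, at 0.48 with all 3 high-Chol arrays above the normal chow arrays. With the slide as a block 0 cell type markers were called, against 10 without the block, where 2.69% of all genes were called higher, and leaving out 1 array at a time gave 3 to 20, the 20 without high-Chol array 1. On slide 1 alone the 10 markers called without the block differed by 0.86 (Mpeg1) to 2.85 (S100a8), against 1.01 to 3.21 over all arrays, with Ccr2 and Retnlg at fitted values. The part of these cell types in the differences of Mki67, Tpx2 and the other genes of mitosis was not tested.

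The other 6 marker lists held 1 call. T cell markers (8 of 8 tested, 0 called) summed to 0.876 to 1.08 in the normal chow group and 1.15 to 1.95 in the high-Chol group, and stellate cell markers (8 of 8 tested) had 1 call, Col1a1 at 1.04. For B cells 4 of 5 genes were tested, for endothelial cells 8 of 8, for cholangiocytes 5 of 6 and for erythroid cells 5 of 6, with 0 called in each. Their summed signals overlapped between the diets for B cells, stellate cells and erythroid cells. For endothelial cells they were 12.4 to 14.3 (normal chow) and 14.3 to 15.2 (high-Chol diet), which met at 14.3. The endothelial differences were positive for 5 genes and negative for 3. For cholangiocytes the sums were 14.1 to 17.0 under normal chow and 9.65 to 12.8 under the high-Chol diet. Spp1, the brightest cholangiocyte marker (3.68 to 3.99 against 3.11 to 3.54 on the log2 scale), weighed most in that sum. Krt19 (0.07), Sox9 (-0.17) and Krt7 (-0.47) had overlapping diets. Epcam was at -0.48 with all 3 high-Chol arrays below the normal chow arrays. Blk of the B cell list, Cftr of the cholangiocyte list, and Ahsp of the erythroid list were above background on no array.

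**Figure D5:**
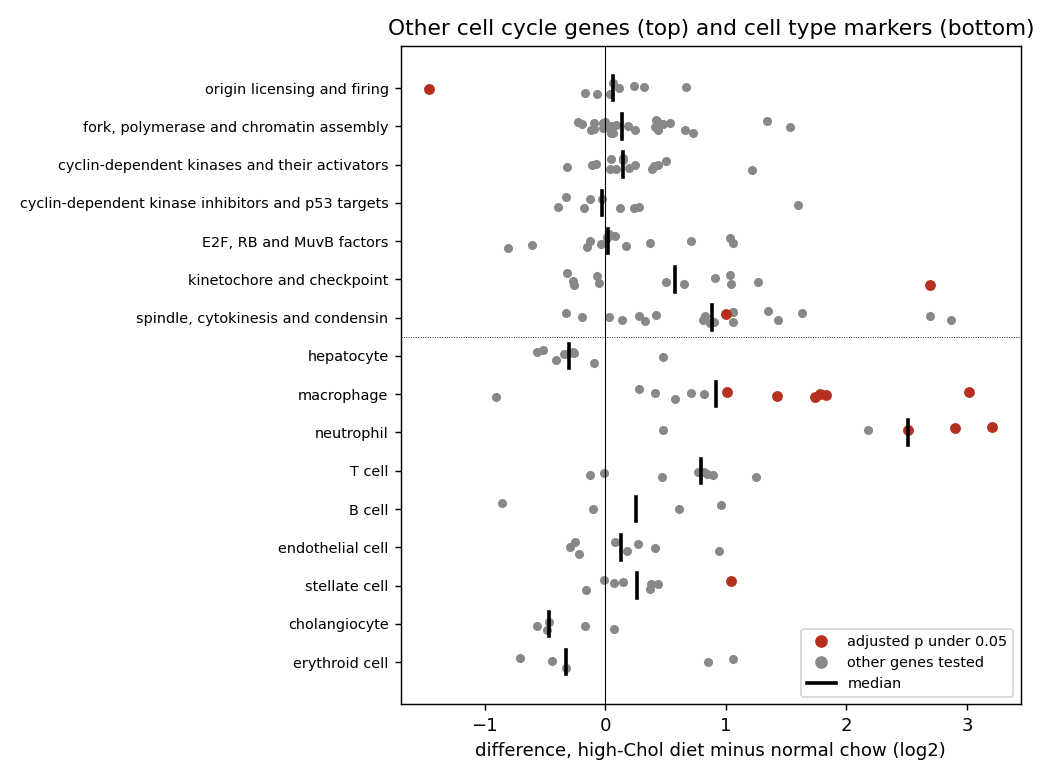
Diet difference (log2) of the other cell cycle genes tested, by role (top), and of the cell type markers tested (bottom); each point is a gene, red points have an adjusted p under 0.05 and bars are medians. Mcm10 is the red point on the left at -1.46, and the called macrophage and neutrophil markers above background on all 6 arrays lie between 1.01 and 3.21; the points of Cenpf, Smc2, Ccr2 and Retnlg are fitted values against normal chow arrays in part or all below background.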

How the data were processed

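Liver RNA of apoE-KO mice was hybridised to 6 whole-genome Agilent arrays, 3 for each diet; the study describes 3 independent experiments a diet, the sources used here do not say that arrays are separate mice, and p-values measure the spread between these arrays. The deposited scanner tables hold intensity in 1 colour, background-subtracted by the authors with Agilent Feature Extraction (9.1 in the submitters' notes, 9.1.1.1 or 9.5.1.1 in the file headers). A deposited table of 1 log2 value per diet, without replicates, was compared as an alternative. Its difference between the diets had a slope of 0.9991 on that of the arrays (r 0.9996). Both were taken over those of its 23458 probes that had a value on every array. The scale of the deposited table matched median scaling, and its zero is otherwise not stated. It holds no measure of error.

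Control spots (1639 per array) and outlier spots were left out, and each log2 processed signal had the 75th percentile of its array's 43379 spots subtracted. Spots of a probe were averaged. A probe was kept when at least 1 diet had it well above background on each of 3 arrays (the scanner's flag, on 0.5 or more of its spots), and the brightest kept probe stood for a gene. Genes were tested with limma 3.58.1 in R 4.3.3, with Benjamini-Hochberg adjustment over 16730 genes and a threshold of 0.05. A gene below background on every array of a diet was given a lower bound, against the lowest signal well above background on each array. The number of arrays limits the precision. On simulated data of 16438 genes, 35 of 98 genes changed 2-fold and 82 of 102 changed 4-fold were called, with 8 false calls.

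The members and lists were chosen with earlier results of these data known. All 39 genes are named; values on every array are given for called members, members above background on all arrays whose diets did not overlap, Mki67, Top2a, Pcna, Ccnd1 and the member of each role with the largest difference, and other array values by choice. Alternatives were normexp background (offset 50), other scalings, filters and probe rules, a slide block, omission of each array, array weights, a trended prior, and the methods' t-test. Other cell cycle genes were matched by array name, older symbol or accession, with 127 of 129 found. Promoters came from RefSeq. A listed cell type marker is not reported here.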

Additional observations from a re-analysis of the deposited data

How the results depend on the processing

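The differences of the 29 genes were recomputed under 19 alternatives, 547 values in all, and 17 genes kept their sign in each. For dim genes the signs under normexp do not settle a direction, because its fixed offset weighed more on the normal chow arrays. The sign turned under normexp for Ccna2 (-0.01), Aurka (-0.09), Plk1 (-0.16), Ube2c (-0.14), Cdca3 (-0.17), Cenpa (-0.19), Tpx2 (-0.32) and Nusap1 (-0.45). It turned with the slide as a fixed block for Pcna (-0.01), Ccnd1 (-0.10), Ccnb2 (-0.13), Cenpa (-0.28) and Birc5 (-0.11), and for Pcna also with median scaling (-0.14), without normal chow array 1 (0.00 in a range of 0.00 to 0.19 over left-out arrays) and in the authors' values (-0.15). The count of 2 members higher and 0 lower became 0 and 0 under normexp (median difference 0.00), without a filter, with the slide as a fixed or random block (block correlation 0.265) and with the methods' t-test (6 and 2 before adjustment of p). It became 3 and 2 with median scaling, 1 and 1 under quantile normalization and with the filter on all 6 arrays, and 12 and 2 with array weights. Over all genes the 450 higher and 38 lower became 0 and 0 under normexp, 329 and 73 with median scaling, 26 and 0 without a filter, 11 and 0 with the fixed block, 254 and 9 with the random block, 2087 and 920 with array weights, and 4 and 1 with the t-test; the lower count was 61 for every probe and 89 with the trended prior. Leaving out 1 array at a time gave 0 to 9 members higher and 0 to 2 lower, 42 to 2316 genes higher and 0 to 761 lower, a median difference of 0.32 to 0.65, and 3 to 20 cell type markers higher (10 with all arrays) and 0 to 2 lower. The fixed block gave 0 cell type markers higher, and it and the lack of a filter each gave 0 other cell cycle genes higher and 0 lower; leaving out 1 array, an alternative chosen after seeing the data, gave 0 to 24 higher and 0 to 2 lower. The cause was not tested. No paired analysis was possible because the labels give the arrays of a diet no number that pairs them with arrays of the other diet. Signal over background limits the 10 genes not tested, and Tpx2 and Nusap1 on normal chow.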
